A study of Homo sapiens with 4 samples.

Results

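The genes of the cytosolic ribosomal proteins were followed in 4 single-cell libraries of A375 cells. A gene counted as a member if it was protein-coding and its GENCODE 29 symbol was RPL or RPS plus a number, with or without an A, X, Y or L suffix (L1 included), or RPLP0, RPLP1 or RPLP2, with the RPS6K kinases and the Y-linked genes left out. This gave 84 genes, 53 of the large (60S) and 31 of the small (40S) subunit, out of 32991 gene identifiers that all 4 count tables listed. The rule uses symbols and no measured value. A level of at least 10 CPM (UMIs per 1000000 UMIs of the library) in the mean of the libraries was reached by 82 members, and RPL3L and RPL10L stayed below it.

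A375 is a human melanoma line with the BRAF V600E mutation, which all 4 cultures carried. S cells were untreated, RV cells were resistant to the BRAF inhibitor vemurafenib, RVC cells to vemurafenib and the MEK inhibitor cobimetinib, and RVT cells to vemurafenib and the MEK inhibitor trametinib. The resistant cultures had been on drug for 10 to 14 days at doses below the IC50, and the drugs were taken off 24 h before capture. Each condition was 1 culture of 1 line and 1 droplet library, so no difference between conditions was tested and nothing is known of the spread between cultures. RVC/S and RVT/S share the same S library. Intervals given below are exact 95% intervals that cover counting error only.

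After filtering, the count of UMIs (unique molecular identifiers, 1 for each captured transcript) was 58611860 and 52389992 in S and RV, and 32968217 and 25407545 in RVC and RVT, from 6334, 4177, 7623 and 8445 cells, with medians of 8808 and 11553 in S and RV, and 3959 and 2871 in RVC and RVT per cell. Between 36 and 105 cell barcodes occurred in both libraries of a pair, at most 1.38% of a library. The S and RV tables listed 703 gene identifiers that the RVC and RVT tables did not, and lacked 547 that those listed, so that the annotations differed. The cells of RVC and RVT were also shallower. Annotation, depth and library are therefore confounded with drug in RVC/S and RVT/S and cannot be told apart from it. The lists of leukocyte, endothelial, erythroid and epithelial markers each summed to at most 2.55 CPM in any library. The 12 melanoma and neural crest markers summed to 298 and 307 CPM in S and RV, and 158 and 246 in RVC and RVT. They did not move together. SOX10, a transcription factor of the melanocyte lineage, was at 86.3 CPM in S, 39.9 in RV and 19.4 in RVT. It had no UMI in RVC, which allows up to 0.0910 CPM. CSPG4 was also lower in each resistant library (27.7 CPM in S, and 14.0, 10.4 and 2.28 in RV, RVC and RVT). MITF was at 9.78 and 20.2 CPM in S and RV, and 8.13 and 41.3 in RVC and RVT. PRAME was at 35.0 and 40.8, and 57.2 and 67.5. Of the leukocyte genes, PTPRC and CD3E had no UMI in any library. CD3D was at 0.0171 and 0.0382 CPM in S and RV, and 2.43 in RVC, with no UMI in RVT. CD79A was at 0.171 and 0.229 CPM in S and RV, and 0.121 and 0.0394 in RVC and RVT. TYR, the tyrosinase of pigmented melanocytes, had no UMI in any library.

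Ribosomal proteins surround the ribosomal RNA. Those of the small subunit line the path of the mRNA and those of the large subunit the exit of the new peptide. Their mRNAs are short and abundant, and most begin with a C followed by a run of pyrimidines, the 5′ TOP motif through which mTOR signalling controls their translation. The proteins are needed in near equal amounts, which makes their relative mRNA levels a property of interest in growing cells. Some members have a paralog that can take their place in the particle, and mutations of RPS19, RPS26 and others cause Diamond-Blackfan anaemia.

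Ribosomal protein genes took close to equal, large fractions of the transcriptome in S and RV and smaller ones in the double-resistant libraries. Of all UMIs, members took 44.7% and 42.5% in S and RV, and 36.7% and 38.9% in RVC and RVT (for RVT, the widest interval, 38.85% to 38.89%). The summed level was 1.05-fold lower in RV than in S, 1.22-fold lower in RVC and 1.15-fold lower in RVT. RVT was 1.06-fold above RVC on total UMIs, a direction that turned with TMM scaling, which sets library sizes by a trimmed mean of the ratios over genes (log2 ratio 0.08 on total UMIs and -0.22 with TMM). TMM moved the median gene of RVT over S from 0.21 to -0.30 in log2, and the summed ribosomal level of RVT over S from -0.20 to -0.72. The share that a member takes of the ribosomal UMIs does not depend on this scaling, so that the following paragraphs mostly use it.

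Within single cells the median ribosomal percent was 44.6% and 41.9% in S and RV, and 36.4% and 39.1% in RVC and RVT, and the central 90% of cells ran from 38.1% to 51.1% in S and from 34.9% to 50.5% in RV. In RVC they ran from 24.0% to 44.5%, and RVT cells from 26.4% to 47.0%. The ranges of S and RV overlapped widely, as did those of RVC and RVT. S and RVC cells lay further apart. The 25th percentile of S cells (42.0%) was above the 75th percentile of RVC cells (40.1%), while that of RVT cells was 42.7%. The percent moved with depth in the shallower libraries. With the cells of a library split by depth into 4 equal groups, from the shallowest to the deepest its median went from 33.3% to 39.0% in RVC and from 35.9% to 41.8% in RVT, against 44.5% and 44.6% in S and 41.9% and 43.3% in RV. Among cells of 4000 to 8000 UMIs, taken from every library, the pooled percent was 44.7% and 41.7% in S and RV, and 37.5% and 40.8% in RVC and RVT. The order of the libraries was kept there, with RVT close to RV. Depth was still not equal in this window, with medians of 6716 and 6700.5 UMIs in S and RV, and 5384 and 4615 in RVC and RVT. It held 658 of the 4177 RV cells and 1637 of the 8445 RVT cells.

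**Figure D1:**
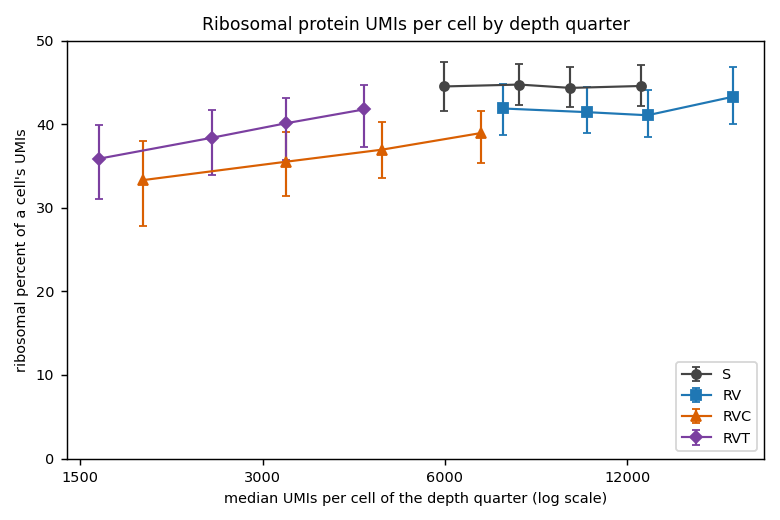
Median ribosomal percent of a cell's UMIs (y axis) against the median UMIs per cell (x axis, log scale) for 4 equal depth groups of cells in each library, with bars from the 25th to the 75th percentile of cells. The RVC and RVT lines climb from 33.3% to 39.0% and from 35.9% to 41.8%, while the S medians lie between 44.4% and 44.8%.

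The balance of the subunits hardly differed. Of the ribosomal UMIs, large-subunit genes took 54.9% and 55% in S and RV, and 56.1% and 54.2% in RVC and RVT. RVC was highest (56.12% to 56.17%) and RVT lowest (54.16% to 54.22%). In RVC over S, 18 of 51 large-subunit and 10 of 31 small-subunit members took a share at least 1.5-fold higher, and 15 and 8 took one at least 1.5-fold lower, where 45.5% of all genes were higher and 25.5% lower relative to the ribosomal sum. In RVT over S these counts were 22 and 13 higher and 17 and 11 lower, against 45.6% and 27.9% of all genes.

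The composition in RV cells was close to that in S cells. Of the 82 members, 61 had a share within 10% of that in S, and 1 was higher by at least 1.5-fold and 0 lower. In CPM the counts were likewise 1 and 0, where 5.35% of all 6504 genes compared were higher and 4.06% lower. Relative to the ribosomal sum the backgrounds were 7.09% and 3.32%. The member past the fold was RPS27L (chr15:63125872-63158021 on GRCh38, ENSG00000185088), a paralog of RPS27 that p53 is known to induce, whose share of the ribosomal UMIs was 0.107% and 0.219% in S and RV, and 0.242% and 0.170% in RVC and RVT. It was 2.05-fold higher in RV than in S (log2 ratio 1.04, 1.02 to 1.06).

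The next largest ratios of RV over S, all inside 1.5-fold, were 0.53 in log2 for RPL17, 0.46 for RPL39L, 0.31 for RPL36AL and 0.26 for RPL36. At the low end were RPS29 (-0.28), RPL41 (-0.25), RPS21 (-0.24), RPL6 (-0.20) and RPS10 (-0.20). The SD of the log2 ratio over members was 0.18, against 0.44 over all genes compared. The order of the shares was nearly the same in both libraries (Spearman's rho 0.99 across 82 genes, which are not independent).

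The most abundant members in S were RPS27, a zinc finger protein of the small subunit, at 5.56% of ribosomal UMIs, RPS2 at 3.58%, the stalk protein gene RPLP1 at 3.18%, RPS18 at 2.70% and RPS6 at 2.52%. RPL13A, RPL39, RPS14, RPL13 and RPS19 followed with 2.46%, 2.29%, 2.27%, 2.24% and 2.18%. Of the ribosomal UMIs, the 10 largest members of each library held 29% and 29.4% in S and RV, and 34.7% and 36.0% in RVC and RVT. The leading gene was RPS27 in S and RV and RPL41 in RVC and RVT. Library preparation captures the 3′ end of a transcript once per molecule, so UMIs were not divided by length.

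**Figure D2:**
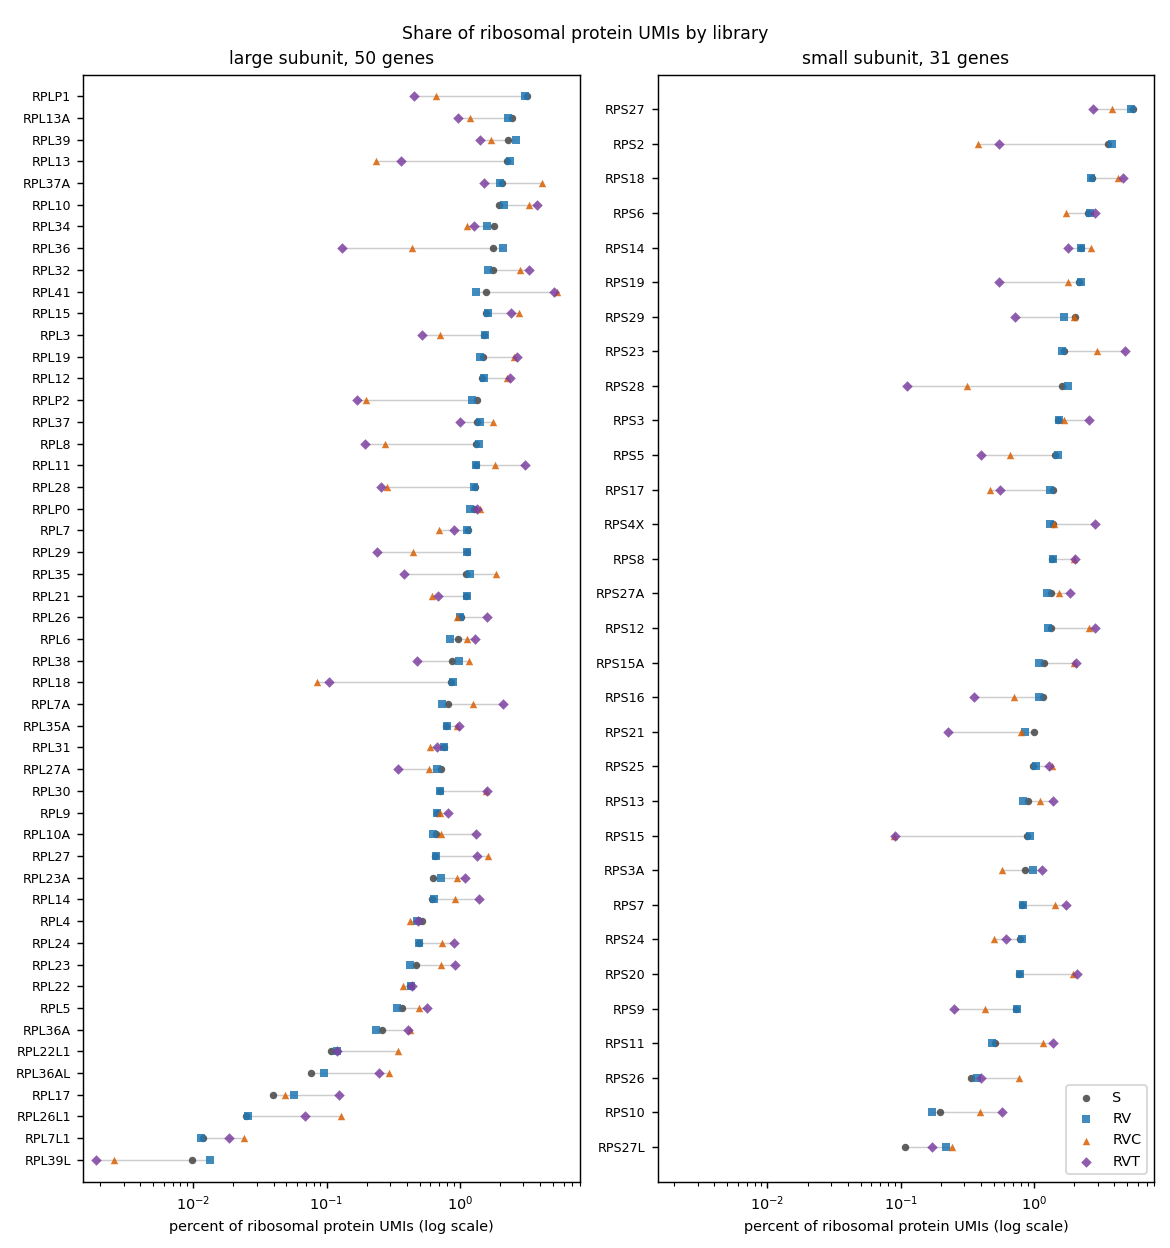
Share of ribosomal protein UMIs (x axis, percent, log scale) of 81 of the 82 members with at least 10 CPM in the mean, ordered by their share in S, with 1 point per library and a grey line over the range. S and RV points nearly coincide for all but a few genes such as RPS27L (0.107% and 0.219%), while RVC and RVT lie far to the left for RPS2, RPL13, RPL18 and RPS15 and to the right for RPL41 (5.37% and 5.07%).

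In RVC and RVT many members lay past 1.5-fold of S, as many other genes did. Of 82 members, 28 took a share at least 1.5-fold higher in RVC than in S and 23 one at least 1.5-fold lower (34.1% and 28.0%, against 45.5% and 25.5% of all 6504 genes taken relative to the same sum). In RVT over S the counts were 35 and 28 (42.7% and 34.1%, background 45.6% and 27.9%). In CPM 14 members were higher and 29 lower in RVC (background 36.7% and 31.2%), and 24 and 31 in RVT (background 39.7% and 31.5%). With TMM scaling the split in CPM became 10 higher and 34 lower in RVC and 9 and 38 in RVT. After the ratios of all genes had been centred within bins of GC content it was 11 and 27 in RVC and 16 and 34 in RVT. The shares of all genes were not counted with TMM scaling or after this centring. The backgrounds above are for CPM on total UMIs and do not apply to these counts. The SD of the log2 ratio of the shares was 1.30 in RVC and 1.51 in RVT, against 1.59 and 1.67 over all genes compared.

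Among the largest deficits in RVC were those of RPL18 (log2 ratio -3.33), RPS15 (-3.29), RPL13 (-3.25) and RPS2 (-3.23). RPS2, a protein at the mRNA entry of the small subunit (chr16:1962052-1964860, ENSG00000140988), took 3.58% and 3.87% in S and RV, and 0.382% and 0.545% in RVC and RVT. Its level went from 16021 CPM in S and 16436 in RV to 1405 in RVC and 2118 in RVT. The gene thus ranked 2nd of all members in S and was 9.37-fold lower by share in RVC (log2 -3.24 to -3.21). RPL13 (chr16:89560657-89566828) took 2.24% and 2.38% in S and RV, and 0.235% and 0.359% in RVC and RVT. RPL18 took 0.855% and 0.884% in S and RV, and 0.0854% and 0.105% in RVC and RVT, and RPS15, which neighbours the decoding site, took 0.878% and 0.935% in S and RV, and 0.0896% and 0.0905% in RVC and RVT.

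Among the lowest ratios of RVT to S were those of RPS28 (-3.88, -3.91 to -3.85), RPL36 (-3.77, -3.79 to -3.74), RPS15 (-3.28) and RPL18 (-3.03). RPS28, near the exit of the mRNA channel, took 1.63% and 1.81% in S and RV, and 0.317% and 0.111% in RVC and RVT on this scale. RPL36 of the large subunit took 1.77% and 2.12% in S and RV, and 0.436% and 0.130% in RVC and RVT. In both genes S and RV were close to each other, RVC was far below them and RVT lower again. RPL18 and RPL36 overlap another listed gene in exons on the same strand (AC022154.1 and HSD11B1L), where reads may have gone uncounted.

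At the other end stood RPL41 (chr12:56116586-56117943, ENSG00000229117), which encodes a very small protein of the large subunit. Its share of the ribosomal UMIs was 1.57% and 1.31% in S and RV, and 5.37% and 5.07% in RVC and RVT, and its level was 7004 and 5578 CPM in S and RV, and 19727 and 19726 in RVC and RVT. The share was 3.43-fold higher in RVC and 3.24-fold higher in RVT than in S. The largest ratios of RVC over S were those of RPL26L1 (2.35), RPL36AL (1.94), RPL41 (1.78), RPL22L1 (1.66) and RPS20 (1.36), of which 3 are paralogs described below. In RVT they were those of RPL41 (1.70), RPL36AL (1.68), RPL17 (1.64), RPS10 (1.56) and RPS23 (1.51). RPS23, which sits at the decoding centre, took 1.69% and 1.62% in S and RV, and 2.98% and 4.81% in RVC and RVT, and RPS10 took 0.197% and 0.171% in S and RV, and 0.393% and 0.579% in RVC and RVT. RPL17 and RPS10 share exons with a read-through transcript that has its own identifier, so that their level is uncertain.

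**Figure D3:**
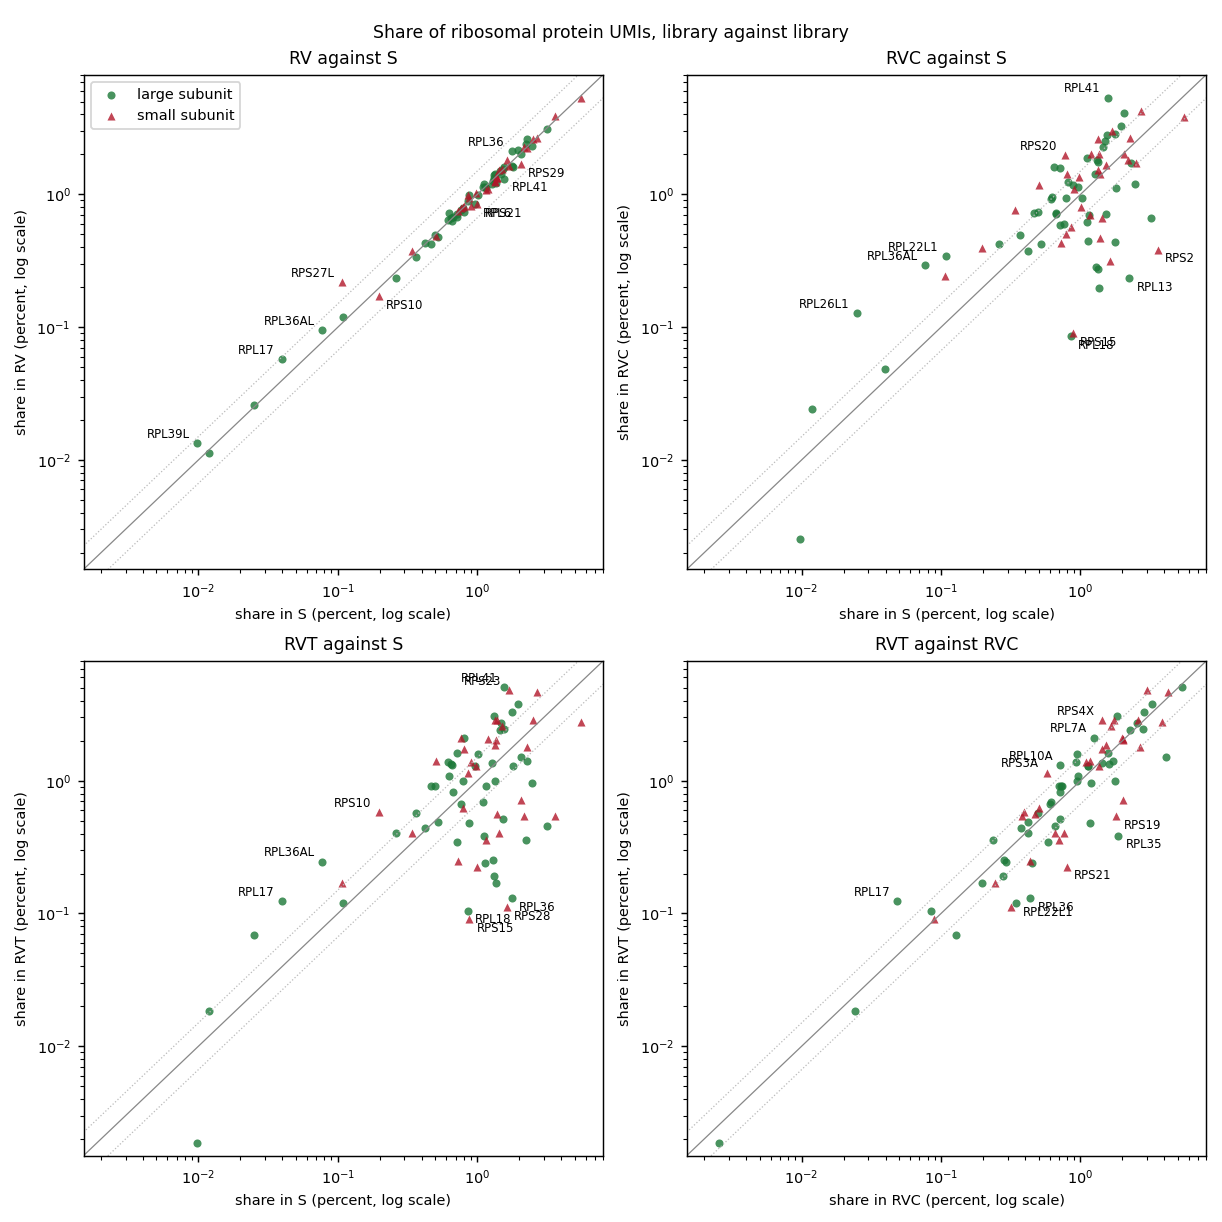
Share of ribosomal protein UMIs (percent, log scales) of 81 of the 82 members in one library against another, in 4 panels, with the line of equality and dotted lines at 1.5-fold, and names at members among the 5 largest and 5 smallest ratios of each panel. RV lies near the line against S, with RPS27L outside 1.5-fold, the RVC and RVT panels spread to both sides with RPS2 going from 3.58% to 0.382% and 0.545%, and RVT against RVC is narrower.

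The starts of these mRNAs were read to see whether members at the 2 ends of the order differ in the TOP motif. A start, from 15 bases before to 15 bases from the annotated first base on, was available for 66 of the 82 members in RefSeq (GRCh38.p14), some with several starts, and RPS2 was not among those. The motif searched was a C followed by at least 4 C or T, beginning within 2 bases of the start, on the gene's own strand. It is in capitals here, with 4 members of low ratios to S in RVT first and 4 of high ratios after them.
RPL18, chr19:48619164-48619193, minus strand: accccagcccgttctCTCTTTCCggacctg
RPL36, chr19:5690280-5690309, plus strand: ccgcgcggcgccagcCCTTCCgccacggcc
RPS28, chr19:8321481-8321510, plus strand: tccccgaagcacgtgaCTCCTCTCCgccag
RPS15, chr19:1438381-1438410, plus strand: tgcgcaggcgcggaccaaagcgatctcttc
RPL41, chr12:56116618-56116647, plus strand: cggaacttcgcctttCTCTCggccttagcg
RPS23, chr5:82278340-82278369, minus strand: tcctgcggtgcttctCTCTTTCgctcaggc
RPS10, chr6:34426055-34426084, minus strand: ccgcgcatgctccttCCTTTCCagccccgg
RPL36AL, chr14:49620612-49620641, minus strand: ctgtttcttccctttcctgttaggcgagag
RPL18, RPL36 and RPS28, which were low in RVC and RVT, hold the motif as RPL41, RPS23 and RPS10 do, which were high, and RPS15 and RPL36AL lack it at the listed start. RPL26L1, with the highest ratio of RVC over S, and RPL17, also among the high ratios of RVT over S, lack it at their listed starts too. RPL17 has a run of C and T further before its listed first base than the 2 bases searched. Of the 66 genes, 50 (75.8%) hold it, against 13.0% of all 27305 genes of that table. In RVC over S the median log2 ratio of the share was 0.01 for the 50 members with the motif. It was 0.56 for the 16 without it at a listed start. In RVT over S the medians were -0.06 and 0.66. The 16 include the paralogs RPL26L1, RPL36AL, RPL7L1 and RPS27L. The split rests on the annotated starts, and the starts used in these cells were not measured. Members with the motif ran from -3.88 to 1.70 in RVT over S and those without from -3.28 to 1.68, so the groups overlapped over most of their range.

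Most of the members that were low in RVC and RVT had a coding sequence of high GC content. Among the 18 members with a coding GC of 55% or more, 15 had a share at least 1.5-fold lower in RVC than in S and 17 in RVT, with median log2 ratios of -2.10 and -2.49. They include RPS15 (63.0% GC), RPS28 (62.3%), RPL13 (62.2%) and RPS2 (61.8%). RPS14 (56.5%) was the member of this class that was inside 1.5-fold in both, with 2.27% and 2.25% in S and RV, and 2.67% and 1.79% in RVC and RVT. Of the 33 members from 48% to under 55%, 3 and 7 were lower, and of the 31 under 48%, 5 and 4. In RV over S none of the 18 passed 1.5-fold and their median was 0.05.

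Other genes moved with coding GC in the same direction, and less far in the class of highest GC. Of 2269 other protein-coding genes with a coding GC of 55% or more, 44.6% were at least 1.5-fold lower in RVC over S and 47.5% in RVT over S, relative to the ribosomal sum, with medians of -0.33 and -0.46. From 48% to under 55% the percentages were 18.7% and 19.7%, and below 48% they were 11.3% and 14.5%. Spearman's rho between coding GC and log2 ratio was -0.37 over members and -0.33 over 6339 genes in RVC over S, -0.46 and -0.30 in RVT over S, and 0.03 and -0.01 in RV over S. With the GC of the last 500 transcript bases, rho was no stronger over members than over all genes. There rho was -0.29 over members and -0.35 over all genes in RVC over S, and -0.31 and -0.40 in RVT over S. The members still differed by this GC. Of the 41 above its median, 22 were lower past 1.5-fold in RVT over S and 17 higher. Of the 41 below it, 6 were lower and 18 higher. In RVC over S, 16 were lower and 15 higher above the median, and 7 and 13 below it. Other genes were not split in this way. These are descriptions across genes of the same 2 libraries. The GC classes were drawn after the values had been seen, and whether the base composition, the library or the drug sets the ratios cannot be told apart here.

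**Figure D4:**
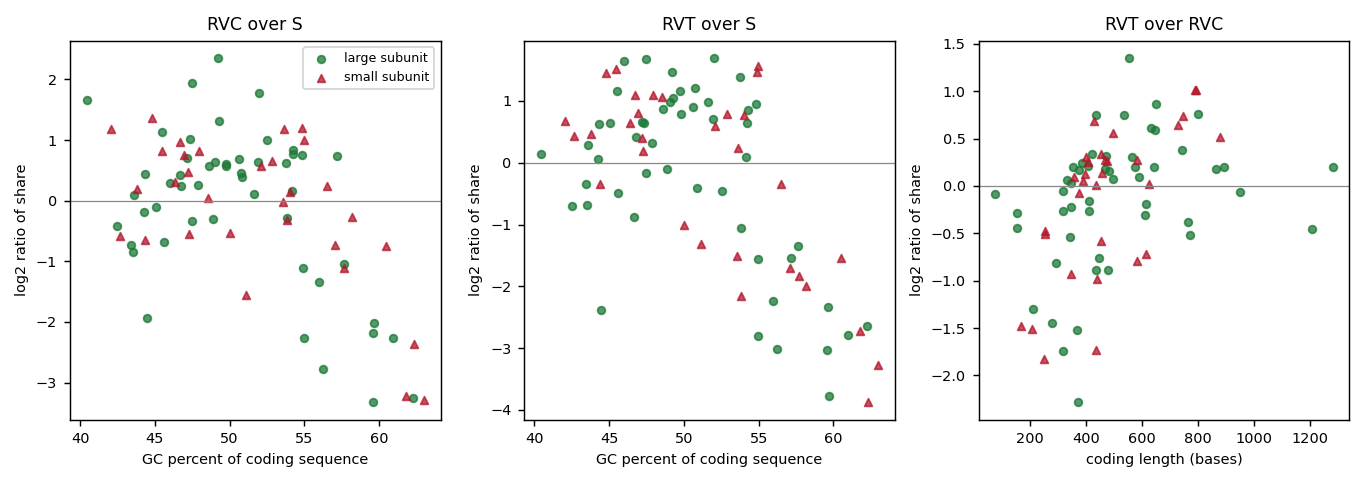
Log2 ratio of the share of 81 of the 82 members (y axis) against the GC percent of its coding sequence for RVC over S and RVT over S, and against its coding length in bases for RVT over RVC, with 1 point per gene. Above 55% GC nearly all points lie below 0, at medians of -2.10 and -2.49, and in the right panel most members under 350 bases lie below 0.

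RVC and RVT, whose tables list the same identifiers, were closer to each other than to S, yet they also differed. Of the 82 members, 12 took a share at least 1.5-fold higher in RVT than in RVC and 17 one at least 1.5-fold lower, against backgrounds of 26.8% and 23.7% of all genes, or 14.6% and 20.7% of the members. In CPM the counts were 14 and 17 (background 30.3% and 21.2%), and 4 and 25 with TMM scaling, where no background was counted. The lowest ratio was that of RPL35 (chr9:124857880-124861981), a protein near the exit tunnel, with 1.12% and 1.2% in S and RV, and 1.87% and 0.384% in RVC and RVT. Its log2 ratio was -2.28 in RVT over RVC (-2.30 to -2.27). RPL35 was the member that lay past 1.5-fold above S in RVC (0.74) and past it below S in RVT (-1.54).

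RPS21 (-1.83), RPL36 (-1.74), RPS19 (-1.74) and RPL22L1 (-1.52) followed at the low end of RVT over RVC. RPS21 took 1.00% and 0.849% in S and RV, and 0.799% and 0.225% in RVC and RVT. At the high end were RPL17 (1.35), RPS4X (1.01), RPS3A (1.01), RPL10A (0.87) and RPL7A (0.76). RPS4X, encoded on the X chromosome, took 1.38% and 1.32% in S and RV, and 1.42% and 2.86% in RVC and RVT, so that S, RV and RVC were alike and RVT stood above them. RPS3A took 0.854% and 0.987% in S and RV, and 0.571% and 1.15% in RVC and RVT.

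The ratios of RVT over RVC were also read against coding length. Of the 19 members under 350 coding bases, 17 had a lower share in RVT, 8 of them by at least 1.5-fold, and none was higher by that much. Of the 30 members of 500 bases or more, 2 were lower and 10 higher past 1.5-fold. The median log2 ratios were -0.51 and 0.20. Other genes under 350 coding bases (326) had a median of -0.35, with 39.6% lower and 13.8% higher past 1.5-fold. Those of 500 bases or more (5249) had a median of 0.10, with 22.4% lower and 27.6% higher. Spearman's rho with coding length was 0.51 over members and 0.19 over all genes, as a description, and in RVC over S it was -0.15 and 0.19. With coding GC the rho of RVT over RVC was -0.33 over members and -0.02 over all genes. Of the 18 members with a coding GC of 55% or more, 8 were lower and 1 higher past 1.5-fold in RVT than in RVC (median -0.55). The other genes of that class had a median of 0.0031, with 25.7% lower and 23.9% higher. The parts of transcript length and GC content in these differences were not tested. RPL41, the shortest member, took nearly the same share in both (5.37% and 5.07%).

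By role, the 3 stalk proteins recruit translation factors to the large subunit as a complex. The shares of their mRNAs did not keep the ratio of S in RVC and RVT, and protein was not measured. RPLP0, the base of the stalk, took 1.27% and 1.19% in S and RV, and 1.42% and 1.35% in RVC and RVT, inside 1.5-fold in every comparison. RPLP1 took 3.18% and 3.11% in S and RV, and 0.661% and 0.455% in RVC and RVT of the ribosomal UMIs. RPLP2 took 1.36% and 1.23% in S and RV, and 0.197% and 0.168% in RVC and RVT. RPLP1 was thus 4.82-fold and 7.0-fold lower by share in RVC and RVT than in S, and RPLP2 6.88-fold and 8.04-fold. The coding GC was 54.2% for RPLP0, 55% for RPLP1, which fell just under the 55% class, and 56.2% for RPLP2.

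RPL5 and RPL11 form a particle with the 5S RNA that also binds MDM2. RPL5 took 0.366% and 0.340% in S and RV, and 0.496% and 0.568% in RVC and RVT, and RPL11 1.32% and 1.32% in S and RV, and 1.82% and 3.06% in RVC and RVT, so that RPL11 over S was 0.46 in log2 in RVC and 1.21 in RVT and RPL5 0.44 and 0.63. RPS6, whose protein is phosphorylated downstream of mTOR and ERK, took 2.52% and 2.62% in S and RV, and 1.73% and 2.89% in RVC and RVT. RPS27A, made as a fusion with ubiquitin, took 1.34% and 1.25% in S and RV, and 1.53% and 1.85% in RVC and RVT. RPS6 and RPS27A were inside 1.5-fold of S in each of the 3 resistant libraries.

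Of the genes mutated in Diamond-Blackfan anaemia, RPS19 took 2.18% and 2.27% in S and RV, and 1.81% and 0.543% in RVC and RVT, and its share was 3.33-fold lower in RVT than in RVC. RPS26 took 0.339% and 0.375% in S and RV, and 0.766% and 0.401% in RVC and RVT, with a log2 ratio of 1.18 in RVC over S. RPS14, the gene of the 5q- syndrome, is given above. RPL7A, which the study names, took 0.809% and 0.738% in S and RV, and 1.25% and 2.11% in RVC and RVT, past 1.5-fold above S in RVC (0.62) and RVT (1.38), and RPL31 took 0.759% and 0.762% in S and RV, and 0.600% and 0.673% in RVC and RVT, inside 1.5-fold in each. RPL13A took 2.46% and 2.30% in S and RV, and 1.2% and 0.965% in RVC and RVT.

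In 8 pairs a member has a paralog under its own symbol, and the pairs were compared as the paralog's percent of the UMIs of the pair. RPS27L and RPL39L are the pairs for which the sequence shows how far 2 members can be told apart. Their coding sequences from the start codon to the last codon before the stop (GENCODE 29, GRCh38) are written here with the bases that differ within the pair in capitals.
RPS27: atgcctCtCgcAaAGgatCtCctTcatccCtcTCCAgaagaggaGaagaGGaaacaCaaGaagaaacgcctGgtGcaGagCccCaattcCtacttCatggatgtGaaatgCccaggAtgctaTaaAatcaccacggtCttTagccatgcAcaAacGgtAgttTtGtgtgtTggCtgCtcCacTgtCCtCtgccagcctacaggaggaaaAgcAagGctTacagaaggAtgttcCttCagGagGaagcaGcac
RPS27L: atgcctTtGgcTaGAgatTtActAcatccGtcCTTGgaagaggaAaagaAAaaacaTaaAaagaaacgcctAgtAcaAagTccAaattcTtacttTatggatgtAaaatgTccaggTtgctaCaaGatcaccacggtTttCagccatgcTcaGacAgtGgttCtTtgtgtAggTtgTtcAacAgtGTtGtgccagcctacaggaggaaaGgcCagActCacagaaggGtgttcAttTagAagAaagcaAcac
RPL39: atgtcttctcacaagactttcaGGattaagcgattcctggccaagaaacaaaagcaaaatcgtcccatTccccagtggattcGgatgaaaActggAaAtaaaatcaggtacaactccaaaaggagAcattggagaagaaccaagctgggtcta
RPL39L: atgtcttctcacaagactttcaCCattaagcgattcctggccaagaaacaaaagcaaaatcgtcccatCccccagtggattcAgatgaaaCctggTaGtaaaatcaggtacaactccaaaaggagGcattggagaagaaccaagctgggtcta
RPS27 and RPS27L, chr1:153990755-153992155 and chr15:63125872-63158021, are identical at 196 of 252 bases, and RPL39 and RPL39L, chrX:119786504-119791643 and chr3:187120948-187180908, at 145 of 153. RPL36A and RPL36AL are identical at 89.9% of coding bases and RPL26 and RPL26L1 at 84.1%. Where the reads fall, and how alike the untranslated parts are, was not measured. Reads that fit both copies may not have been counted.

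Of its pair with RPS27, RPS27L made up 1.88% in S (from 1.86% to 1.90%) and 3.92% in RV (from 3.89% to 3.96%), against 5.92% in RVC (from 5.85% to 5.98%) and 5.79% in RVT (from 5.70% to 5.87%). The level of RPS27L was 477 and 930.5 CPM in S and RV, and 889 and 662 CPM in RVC and RVT, and that of RPS27 in CPM was 24858 and 22791 in S and RV, and 14132 and 10777 in RVC and RVT. In RV the higher percent came with RPS27L CPM 1.95-fold above S. In RVC and RVT, RPS27 was also lower, by 1.76-fold and 2.31-fold in CPM. After each cell was thinned to 1500 UMIs, cells with an RPS27L UMI made up 43.5% and 66.6% in S and RV, and 67.8% and 57.6% in RVC and RVT, and unthinned 89.3%, 98.4%, 89.4% and 76.4% in the same order. The libraries held no other cell type in which these genes should be silent, so the part of free RNA in such percentages could not be measured.

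Of its pair with RPL22, an RNA-binding protein of the large subunit, RPL22L1 took 20.4% in S (from 20.2% to 20.6%) and 21.9% in RV (from 21.7% to 22.1%), against 47.9% in RVC (from 47.6% to 48.2%) and 21.3% in RVT (from 21.0% to 21.7%). RVC stood alone. Its RPL22L1 level was 1256 CPM against 483 in S, 509.5 in RV and 464 in RVT, while RPL22 went from 1889 CPM in S to 1367 in RVC. Thinned cells with an RPL22L1 UMI made up 43.0% and 44.9% in S and RV, and 74.4% and 44.5% in RVC and RVT (unthinned 85.5%, 89.4%, 88.7% and 61.7%). RPL26L1 was also highest in RVC. Of the pair with RPL26 it took 2.39% in S (from 2.34% to 2.45%) and 2.51% in RV (from 2.45% to 2.58%), against 11.9% in RVC (from 11.7% to 12.1%) and 4.16% in RVT (from 4.06% to 4.26%), and its level was 112 and 109 CPM in S and RV, and 469.7 and 269 CPM in RVC and RVT. RPL26 overlaps another listed gene in exons on the same strand, which makes this percent uncertain. RPL7L1, a factor of large subunit assembly, made up the following percentages of its pair with RPL7, 1.02% in S (from 0.989% to 1.06%) and 0.999% in RV (from 0.961% to 1.04%), against 3.35% in RVC (from 3.23% to 3.47%) and 2.01% in RVT (from 1.92% to 2.10%).

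RPL36AL was higher in both double-resistant libraries. Of its pair with RPL36A it took 22.8% in S (from 22.5% to 23.1%) and 28.8% in RV (from 28.4% to 29.1%), against 41.1% in RVC (from 40.7% to 41.4%) and 37.6% in RVT (from 37.2% to 38.0%), with 343 and 403 CPM in S and RV, and 1081 and 954 CPM in RVC and RVT. RPL36A shares exons with a read-through identifier, which makes the percent uncertain. RPL39L went the other way. Of its pair with RPL39 it took 0.424% in S (from 0.408% to 0.441%) and 0.507% in RV (from 0.489% to 0.526%), against 0.147% in RVC (from 0.131% to 0.165%) and 0.133% in RVT (from 0.114% to 0.153%), with 43.5 and 56.9 CPM in S and RV, and 9.34 and 7.28 CPM in RVC and RVT, so that it was 3.83-fold lower by share in RVC and 5.20-fold lower in RVT than in S. Thinned cells with an RPL39L UMI made up 5.87% and 8.07% in S and RV, and 1.63% and 0.961% in RVC and RVT (unthinned 30.0%, 44.4%, 3.96% and 2.16%). RPL3L, a muscle gene, had no UMI in any library, which allows up to 0.0512 and 0.0573 CPM in S and RV, and 0.0910 and 0.118 in RVC and RVT. RPL10L, a testis gene, had 3 UMIs in S, 4 in RV and none in RVC and RVT, where its partner RPL10 took 3.28% and 3.77% of ribosomal UMIs.

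**Figure D5:**
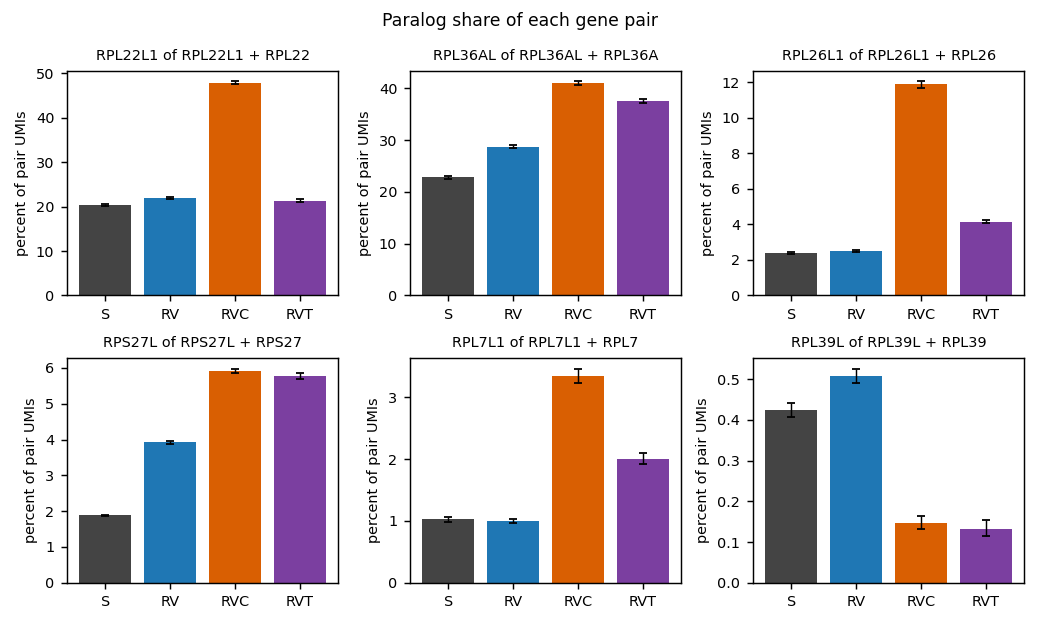
Paralog's percent of the UMIs of its pair (y axis) in each library for 6 pairs, as bars from 0 with exact 95% Clopper-Pearson intervals for counting error, 1 library per bar. RPL22L1 reaches 47.9% in RVC and lies between 20.4% and 21.9% elsewhere, RPS27L lies above S in each resistant library, and RPL39L lies lowest in RVC and RVT.

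Cells were also compared within each library. Those with UMIs of at least 3 of 20 mitosis genes after thinning numbered 713 and 618 in S and RV, and 2496 and 366 in RVC and RVT. Their median ribosomal percent was 42.7%, 39.6%, 35.8% and 34.8%, against 44.8%, 42.3%, 37.2% and 39.8% in the other thinned cells, lower in each of the 4 libraries. The SD of the log2 ratio of the shares between mitotic and other cells was 0.15, 0.11, 0.06 and 0.30 in S, RV, RVC and RVT.

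RPL39L was the member with the highest ratio of mitotic over other cells in all 4 libraries. Its level in mitotic and in other cells was 79.2 and 38.3 CPM in S, 82.9 and 51.9 in RV, 10.3 and 8.92 in RVC and 26.5 and 6.10 in RVT. The log2 ratios of the share were 1.12, 0.78, 0.27 and 2.31. The mitotic RVT value rests on 41 UMIs (19.0 to 36.0 CPM), and in RVC the Poisson intervals of mitotic cells (8.57 to 12.4) and other cells (7.69 to 10.3) overlapped. RPS27L had the lowest ratio in S (-0.57), RV (-0.23) and RVC (-0.26), and RPL3 in RVT (-0.20). RPL22L1 passed 1.5-fold in mitotic cells of RVT, at 736 against 452 CPM. Cells of 1 library are not replicates, so these ratios were not tested.

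Depth moved few shares within a library. Between the deepest and the shallowest of the 4 depth groups the SD of the log2 ratio was 0.13 and 0.11 in S and RV, and 0.23 and 0.24 in RVC and RVT. RPL22L1 passed 1.5-fold upward in S and RV, and in RVT its log2 ratio of 0.54 stayed inside it. RPL7 passed 1.5-fold downward in RVC and RVT, with 1.05% of ribosomal UMIs in the shallowest and 0.609% in the deepest group of RVC and 1.34% and 0.795% in RVT, against 1.18% and 1.12% in S. RPS27L passed it downward in RVT, at 0.223% and 0.147%. In cells of 4000 to 8000 UMIs, 29 members were higher and 25 lower past 1.5-fold in RVC over S, and 31 and 28 in RVT over S. The share of all genes was not counted in this window, so these counts cannot be set against a background.

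Ribosomal proteins whose symbols the rule does not take, here FAU, RPSA and RACK1, also differed among themselves. FAU, fused to a ubiquitin-like protein, was at 1809 and 1730.0 CPM in S and RV, and 1271 and 492 CPM in RVC and RVT. RPSA was at 3138 and 3096 CPM in S and RV, and 4173 and 4385 CPM in RVC and RVT and RACK1, the scaffold on the small subunit head, at 4664 and 4041 CPM in S and RV, and 4565 and 4023 CPM in RVC and RVT. FAU had a level in RVT well below that in S, while RPSA and RACK1 were inside 1.5-fold of S in every resistant library in CPM on total UMIs.

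Among 10 other mRNAs known for a TOP start, 0 were higher and 6 lower in RVC over S (median log2 -0.61) and 1 higher and 2 lower in RVT over S (median -0.15). Of all genes compared, 36.7% were higher and 31.2% lower in RVC and 39.7% and 31.5% in RVT, with medians of 0.16 and 0.21, which are also the background of the next counts. EEF2, the translocase of elongation, was at 733 and 889 CPM in S and RV, and 197 and 273 CPM in RVC and RVT, and EEF1A1, which brings tRNA to the ribosome, at 5889 and 6208 CPM in S and RV, and 4476 and 9297 CPM in RVC and RVT. PABPC1, the poly(A) binding protein, was at 715 and 703 CPM in S and RV, and 269 and 637 CPM in RVC and RVT and NPM1, a nucleolar chaperone, at 2640.2 and 1942 CPM in S and RV, and 1719 and 1306 CPM in RVC and RVT. BTF3 had the highest ratio in RVC over S (0.18). Of 6 elongation factors, 1 was higher and 3 lower in RVC and 2 and 3 in RVT, with EEF1D at 812 and 916 CPM in S and RV, and 99.0 and 129.6 CPM in RVC and RVT, EIF5A at 622 and 671 CPM in S and RV, and 281 and 131 CPM in RVC and RVT, EEF1B2 at 1244 and 1041 CPM in S and RV, and 1376 and 1329 CPM in RVC and RVT and EEF1G at 7.83 and 7.37 CPM in S and RV, and 13.4 and 27.3 CPM in RVC and RVT.

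Of 27 initiation factors that passed the filter, 3 were higher and 11 lower in RVC over S (median -0.35), where 36.7% and 31.2% of all genes were. In RVT over S 6 were higher and 14 lower (median -0.59), against 39.7% and 31.5% of all genes. The ends of the order were EIF3J (-0.85) and EIF4A2 (0.38) in RV over S, EIF3J (-4.06) and EIF4A2 (0.87) in RVC over S, EIF3J (-4.31) and EIF4G2 (1.59) in RVT over S and EIF5B (-1.49) and EIF4B (1.23) in RVT over RVC. In RV over S 0 factors were higher and 1 lower past 1.5-fold.

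Genes of ribosome assembly were mostly lower in RVT. Of 24 that passed the filter, 6 were higher and 11 lower in RVC over S (median log2 -0.38), 1 higher and 18 lower in RVT over S (median -1.13), and 0 higher and 14 lower in RVT over RVC (median -0.79). The ends were NCL (-0.53) and EBNA1BP2 (0.40) in RV over S, RRP9 (-2.83) and NOP10 (2.21) in RVC over S, RRP9 (-3.64) and NOP10 (1.15) in RVT over S and NCL (-2.34) and NOP2 (0.48) in RVT over RVC. NOP10 is a subunit of the particle that makes pseudouridine in ribosomal RNA and NCL is nucleolin. Of 74 proteins of the mitochondrial ribosome, 19 were higher and 40 lower in RVC over S (median -0.65) and 9 and 43 in RVT over S (median -1.20), with ends at MRPL1 (-0.68) and MRPL50 (0.47), MRPL12 (-3.41) and MRPS28 (1.94), MRPL23 (-3.73) and MRPS28 (1.21) and MRPL54 (-1.97) and MRPS27 (0.91) in the same 4 comparisons. The background of every list in this paragraph is the CPM count over all genes compared. Of these, 36.7% were higher and 31.2% lower in RVC over S. In RVT over S 39.7% and 31.5% were, and in RVT over RVC 30.3% and 21.2%. In RV over S no gene of the assembly or mitochondrial ribosome list was higher past 1.5-fold and 1, MRPL1, was lower. Of all UMIs, mitochondrially encoded RNA took 3.19% and 3.09% in S and RV, and 3.65% and 5.89% in RVC and RVT. Of the 13 mitochondrially encoded genes, 4 were higher and 3 lower in RVC over S, 8 and 3 in RVT over S and 6 and 4 in RVT over RVC, with ends at MT-CYB (-0.25) and MT-ND5 (0.29), MT-ATP8 (-1.22) and MT-ND6 (1.92), MT-ATP8 (-2.07) and MT-ND1 (2.08) and MT-ND6 (-1.13) and MT-ND1 (1.21), RV over S first. Of the 18 mitosis genes that passed the filter, 15 were higher and 2 lower in RVC over S, 1 and 5 in RVT over S and 0 and 18 in RVT over RVC, with ends at TOP2A (-0.43) and CDC20 (0.74), CDC20 (-0.997) and BUB1B (2.60), CDC20 (-4.06) and NUSAP1 (0.69) and AURKB (-3.93) and TPX2 (-0.94). The mitosis genes summed to 719.9 and 913 CPM in S and RV, and 1638 and 446 in RVC and RVT. Without mitochondrially encoded UMIs the ribosomal percent was 46.2% and 43.8% in S and RV, and 38.1% and 41.3% in RVC and RVT, in the same order of libraries, and the percent in mitotic and other cells is given above.

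Some members carry limits of their own. GENCODE 29 lists processed or other pseudogenes named after all but 8 of the 84 members, a median of 8 and up to 91 for RPL23A. The count tables list 0 of the 91 of RPL23A. Reads that fit a copy as well may be missing, which was not measured. In 9 members exons overlap another listed gene on the same strand, and in none of these is that gene listed in only 2 of the tables. The interval of a share was at most 1.93% of its value to either side for members with at least 0.1% of the ribosomal UMIs, and widest for RPL39L in RVT, at 14.7%.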

How the data were processed

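Single-cell 3′ libraries of A375 cells were made with 10x Chromium version 2 chemistry, with 10000 cells loaded. Per the labels, the authors ran bcl2fastq 2.20.0.422 and Cell Ranger (version not given in the sources used here) on GRCh38 and deposited raw UMI counts per Ensembl gene and cell barcode, which are the unit used here. Groups came from the sample labels, with 1 library each.

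Of 30716 barcodes, 26579 were kept: at least 500 genes, at most 20% mitochondrial UMIs, and removal of the highest Scrublet doublet scores (scanpy 1.11.5) at 0.8% per 1000 barcodes, that is 359 and 150 in S and RV and 687 and 870 in RVC and RVT. The scores' own automatic calls were too few to use. UMIs were summed per library and divided by the total (CPM) or by the sum over members (share). GENCODE 29 gave names, positions and coding sequences. Ratios past 1.5-fold in either direction were counted for genes whose mean over the 4 libraries reached 10 CPM, with no test, since each group had 1 library. Intervals are exact Clopper-Pearson or Poisson 95% intervals. PCR duplicates were collapsed by the UMIs, and the intervals cover counting error only. A UMI count of 0 allows up to 3 UMIs. For percentages of cells with a UMI, cells were thinned to 1500 UMIs, and 397 RVC and 845 RVT cells below this were left out. Mitotic cells had UMIs of at least 3 of 20 mitosis genes after thinning.

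The genes named are the 10 members with the largest share in S, the 5 highest and 5 lowest ratios of each comparison, both genes of 8 paralog pairs, members chosen by role or because the study names them, and the highest and lowest gene of each other list and comparison. A few others named were chosen after their values were seen. The members and lists were chosen with earlier results of these data known, and the classes of GC content and length after their values were seen. A few genes are not reported here. Transcript starts came from RefSeq (GRCh38.p14).

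Alternatives were TMM scaling (edgeR 4.0.16, R 4.3.3), centring on GC content in 10 bins, no filter on low genes, all barcodes, at least 1000 genes per cell, cells weighted equally, no mitochondrial UMIs and ribosomal proteins of other symbols added. Scripts used scipy 1.17.1, pandas 2.3.3, numpy 2.4.6 and matplotlib 3.10.9 under Python 3.11.15. The counting of ratios was tested on simulated data of 6504 genes with known changes, and recovered 100% of the 2-fold and 4-fold changes in each comparison. The simulated data held counting error only. They had no spread between cultures, no trend with GC content and no difference in annotation, so the test says nothing about those.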

Additional observations from a re-analysis of the deposited data

Results flagged for a closer look

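Barcodes that the filters on genes and mitochondrial UMIs removed still held ribosomal protein UMIs, which no comparison above uses. They made up 15.4% of the UMIs of the 959 removed barcodes in RVC and 22.1% of those of the 1114 removed in RVT, below the percentages in the kept cells of the same libraries and above the limit that a count of 0 allows. S and RV had 2 and 1 such barcodes.

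RPL35 lay on opposite sides of S in the libraries resistant to both kinds of inhibitor. The log2 ratio of its share was 0.74 in RVC over S and -1.54 in RVT over S. The difference was not tested, since each condition was 1 library, and the comparisons share the S library.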

How the results depend on the processing

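No paired analysis was possible because each condition was 1 library with no replicate. The summed ribosomal level of RVT over RVC turned from 0.08 to -0.22 in log2 with TMM scaling. No count or percentage below changed direction under the alternatives run. All 32 recomputed counts of members past 1.5-fold in share stayed within 1.5 times their value, as did 30 of 32 in CPM. With TMM scaling the members higher in CPM were 9 in RVT over S and 4 in RVT over RVC, with no background counted under that scaling. Leaving out members that overlap a gene listed in only 2 of the tables could not change a value, since no member met this. The alternatives of cells of 4000 to 8000 UMIs, of leaving out the 9 overlapping members and of leaving out RPL7L1, RPL22L1 and RPL26L1 were chosen after seeing the data.

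The ribosomal percent moved by more than its counting interval, in S to 44.8% with all barcodes, 44.7% in cells of 4000 to 8000 UMIs, 44.6% with cells weighted equally and 46.2% without mitochondrial UMIs. In the same order it was 42.5%, 41.7%, 42.1% and 43.8% in RV, 36.4%, 37.5%, 35.6% and 38.1% in RVC and 38.4%, 40.8%, 38.0% and 41.3% in RVT, and with at least 1000 genes per cell 37.1% in RVC and 39.2% in RVT. The large-subunit percent was 55%, 55.3%, 56.2% and 54.4% in cells of 4000 to 8000 UMIs of S, RV, RVC and RVT, 54.6%, 54.7%, 55.9% and 54.1% with ribosomal proteins of other symbols added, and 56.2% in RVC and 54.4% in RVT with at least 1000 genes. With at least 1000 genes the paralog percent was 3.63% in RVC and 2.25% in RVT for RPL7L1, 48.4% and 22.4% for RPL22L1 and 5.58% and 5.33% for RPS27L, which was 5.85% in RVC with all barcodes. The cause of these shifts was not tested.

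With 1 culture per condition, no difference between libraries can be assigned to a drug. RVC and RVT also differed from S in annotation, depth and the relation of levels to GC content. The counting interval was widest for RPL39L, at 3.90% of its value in S and 14.7% in RVT.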
